A study of Melospiza melodia with 33 samples.

Results

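Blood transcriptomes taken after playback of 3 different recordings of local song were compared with each other in the song sparrow, Melospiza melodia, using adult males that lived free. The members are the 11 local song libraries of the series' 33, grouped by the stimulus number in the sample title: stimulus 2 in 4 libraries, stimulus 3 in 3 and stimulus 6 in 4. Each of the 11 libraries came from another bird. In the study, intrusions on territories in Linesville, Pennsylvania, were simulated with song recorded there (local) or in Millbrook, New York (foreign, stimuli 1, 4 and 5), and baseline birds had no trial. Stimulus 2 was played to birds 8426 and 8432 in a first trial and to 8429 and 8436 in a second. Stimulus 3 was played to birds 8422, 8427 and 8430, all in a first trial. Stimulus 6 was played to 8434 and 8437 in a first trial and to 8428 and 8439 in a second. Of these birds 8 also have a foreign song library, and the foreign recording follows the local one: stimulus 1 for 3 birds of stimulus 2, stimulus 4 for the 3 birds of stimulus 3, and stimulus 5 for 2 birds of stimulus 6. A difference between recordings therefore cannot be told apart from a difference between birds, and stimulus 3 has no second-trial library. The 10 baseline libraries serve as the control of the study.

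Territorial male songbirds answer a simulated intruder with song, approach and hormonal change, and playback studies use several recordings per song class so that 1 recording does not stand for the class. Avian red blood cells keep their nucleus and make RNA, so whole blood of a bird holds red cell transcripts beside those of thrombocytes and white cells. Chaperones fold proteins and are made in greater amount under heat and other stress, interferon-stimulated genes answer viral infection, and glucocorticoids released under stress act on blood cells through target genes such as SGK1.

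Total counts per library, in units of 1000000, ran from 68.4 to 90.1 over the 11 libraries, with means of 77.6 ± 4.38 for stimulus 2, 85.5 ± 6.70 for stimulus 3 and 75.5 ± 7.80 for stimulus 6 (SD, n = 4, 3 and 4). Depth, the number of genes detected, the share of the 10 most abundant genes and the first 3 principal component scores were each compared over the 11550 assignments of libraries to recordings, and none passed (exact permutation test of the F statistic, which has no direction, lowest p = 0.184, adjusted over the 6 values 0.530). The whole-blood label was checked on cell type markers, of which the highest were red cell genes. ANK1, a membrane anchor of red cells, averaged 4094 CPM (counts scaled to 1000000 per library), while the T cell marker CD4 averaged 1.09 and the B cell marker CD79A 4.01 CPM. The lists overlapped, since the red cell genes XK and BPGM averaged only 0.167 and 1.12 CPM. The thrombocyte marker GP1BB averaged 389, XBP1 of the B cell list 280 and GATA3 of the T cell list 48.9 CPM. In bulk blood, fewer cells of a type and less RNA per cell cannot be told apart. The library labelled 8439 after stimulus 6 stood apart. Across genes, the centred log2 CPM of the other 7 birds' local libraries correlated with their own foreign library at r of 0.187 to 0.586, the highest of the 8 foreign libraries in each case, whereas for 8439 the r was -0.311, the lowest of the 8. Of the 32 other libraries it was closest to that of baseline bird 8450 (r = 0.305), and whether its label is right was not tested. Bird 8428 was also closer to 8450 (r = 0.210) than to its own foreign library (r = 0.187), and by the median correlation of log2 CPM with the other 10 local libraries 8428 was lowest at 0.897 and 8439 next at 0.906. Most list medians for stimulus 2 against 6 are given with and without 8439. By the spread of single genes, libraries of stimulus 6 differed most among themselves: the median gene had an SD of log2 CPM of 0.751 in stimulus 6, 0.524 in stimulus 2 and 0.506 in stimulus 3, against 0.617 in baseline birds. The value of stimulus 6 includes 8439, and none without it is given here. Correlations of centred log2 CPM did not give this order. Their medians within stimuli 2, 3 and 6 were -0.0594, -0.101 and 0.0305. With libraries of the other recordings they were -0.0620, -0.0708 and -0.0691.

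No gene passed the correction in edgeR among the 3 recordings. Of 12854 genes tested, 0 (0%) passed the test for any difference at an adjusted p of 0.05, the lowest adjusted p was 0.121, and 818 genes (6.36%) had an unadjusted p under 0.05 (edgeR quasi-likelihood test, Benjamini-Hochberg). The same test called 0 genes (0%) for stimulus 2 against 3, for 2 against 6 and for 3 against 6. Unadjusted p-values under 0.05 were found for 308 genes (2.4%) in the comparison of stimulus 2 with 3, for 964 (7.5%) of 2 with 6 and for 944 (7.34%) of 3 with 6. The count depended on the tool: DESeq2 called 57 genes for any difference, 3 for stimulus 2 against 3, 60 for 2 against 6 and 28 for 3 against 6, while limma-voom called 0 in each. In 3 further contrasts, added after the pairs had given no call, each recording was set against the mean of the other 2. They called 1 gene (0.00778%) for stimulus 2 and 0 (0%) for stimuli 3 and 6, with an unadjusted p under 0.05 for 439 genes (3.42%) after stimulus 3 and 1421 (11.1%) after stimulus 6. In the same contrasts DESeq2 called 23 genes for stimulus 2, 3 for stimulus 3 and 78 for stimulus 6 (47, 7 and 74 without 8439), and limma-voom called 0 in each. The genes named next are those of smallest p, and unless a call is stated they did not pass. The p-values measure the spread between birds.

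The gene called in that added contrast was BCLAF3, a relative of the transcription factor BCLAF1. It had 13.5, 1.51, 16.4 and 5.29 CPM in the stimulus 2 birds 8426, 8429, 8432 and 8436, 0.282, 0.573 and 0.344 CPM in the stimulus 3 birds 8422, 8427 and 8430, and 1.41, 0.548, 0.671 and 0.760 CPM in the stimulus 6 birds 8428, 8434, 8437 and 8439. All 4 stimulus 2 libraries lay above the other 7, with 8429 only just above 8428. Its log2 fold change was 3.96 ± 0.54 (SE) for stimulus 2 against the mean of the others (edgeR, adjusted p = 0.0415), and it passed in 6 of 20 alternative analyses of that contrast, over which the adjusted p ran from 4.85e-10 in DESeq2 to 1.00 in limma-voom. With 1 of the 11 libraries left out at a time it passed only without 8429 (adjusted p = 0.00242), and the other 10 gave an adjusted p of 0.0603 without 8436 to 0.282 without 8430, with 0.0980 without 8439 (edgeR). The pairs gave 4.52 ± 0.78 for stimulus 2 against 3 (edgeR, adjusted p = 0.505) and 3.40 ± 0.65 for 2 against 6 (edgeR, adjusted p = 0.294). Baseline birds had a lowest of 0.0996, a median of 2.04 and a highest of 10.2 CPM, so that 8426 and 8432 were above all of them and 8429 and 8436 within their range. After foreign song, the stimulus 2 birds 8426, 8429 and 8436 had 17.9, 3.65 and 1.2 CPM, so that bird 8426 was high after both songs and bird 8436 after local song only.

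PDK1, a kinase that shuts down pyruvate dehydrogenase and so turns cells from respiration to glycolysis, had 8.46, 0.824, 1.26 and 7.11 CPM after stimulus 2, 0.241, 0.369 and 0.510 CPM after stimulus 3 and 0.402, 0.263, 0.224 and 0.405 CPM after stimulus 6, with birds in the same order. Stimulus 2 was above the other recordings without overlap, mostly through birds 8426 and 8436. Its log2 fold change was 3.68 ± 0.71 for stimulus 2 against 6 (edgeR, adjusted p = 0.294). The same 2 birds were high after foreign song, where 8426, 8429 and 8436 had 15.1, 1.01 and 4.95 CPM. PLS1, an actin-bundling protein, had 7.57, 3.01, 14.2 and 5.64 CPM after stimulus 2, 2.11, 3.59 and 1.61 CPM after stimulus 3 and 0.864, 0.931, 0.335 and 1.2 CPM after stimulus 6. Stimulus 6 lay below all other libraries, and stimuli 2 and 3 overlapped. MYLK2, a myosin light chain kinase, had 1.92, 1.65, 1.58 and 1.92 CPM after stimulus 2, 7.12, 2.22 and 4.23 CPM after stimulus 3 and 8.54, 9.0, 6.17 and 9.97 CPM after stimulus 6. Here stimulus 2 was lowest without overlap, and its log2 fold change against stimulus 6 was -2.30 ± 0.40 (edgeR, adjusted p = 0.294).

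**Figure D1:**
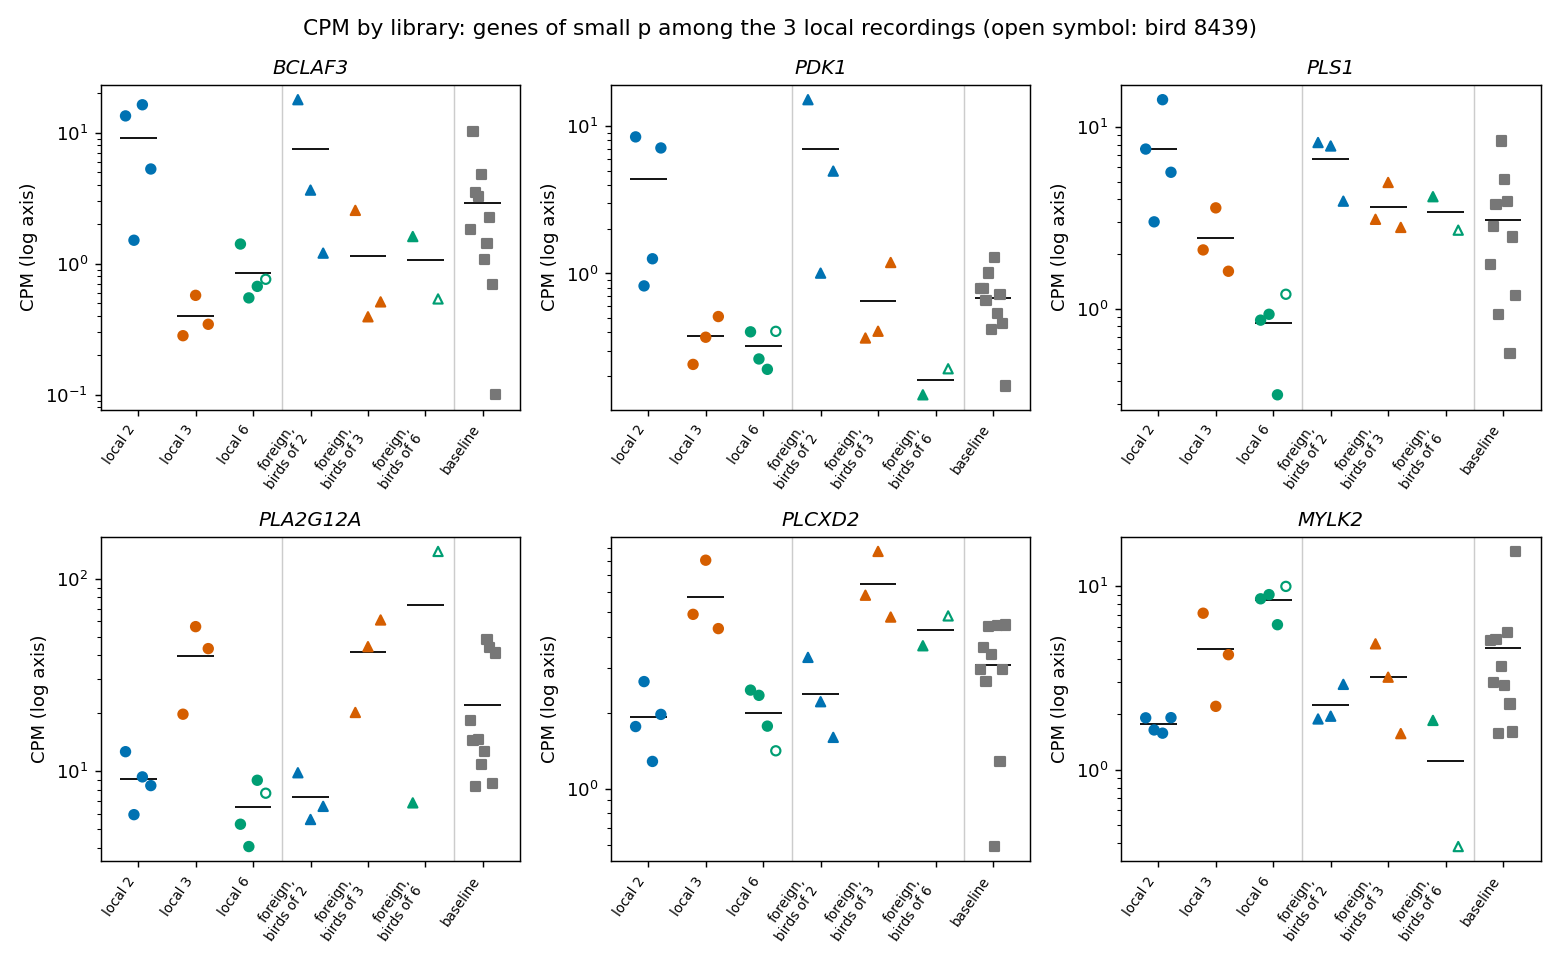
CPM (log axis) of 6 genes in each library; columns are the local recordings 2, 3 and 6, the foreign song libraries of the same birds, and baseline, horizontal lines are arithmetic means and open symbols are bird 8439. BCLAF3 and PDK1 were highest after stimulus 2 and PLA2G12A and PLCXD2 after stimulus 3, and the birds of stimulus 3 were also high in PLA2G12A after foreign song.

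PLA2G12A, a secreted phospholipase A2, was highest after stimulus 3. It had 12.6, 5.95, 9.35 and 8.43 CPM after stimulus 2, 19.8, 56.4 and 43.4 CPM after stimulus 3 and 5.31, 4.06, 8.98 and 7.69 CPM after stimulus 6. All 3 stimulus 3 libraries were above the other 8. The log2 fold change was -2.13 ± 0.41 for stimulus 2 against 3 (edgeR, adjusted p = 0.741) and 2.57 ± 0.41 for 3 against 6 (edgeR, adjusted p = 0.249). After foreign song the same birds 8422, 8427 and 8430 were again high, with 20.2, 44.4 and 61.1 CPM. Bird 8439 was the exception among the paired birds, since the foreign song libraries of 8428 and 8439 held 6.85 and 139 CPM. Baseline birds had a lowest of 8.34, a median of 14.6 and a highest of 48.2 CPM. PLCXD2, which carries a phospholipase C domain, had 1.76, 2.66, 1.28 and 1.97 CPM after stimulus 2, 4.91, 8.05 and 4.31 CPM after stimulus 3 and 2.46, 2.34, 1.77 and 1.41 CPM after stimulus 6. All 3 stimulus 3 libraries were above the other 8, and the same birds had 5.85, 8.72 and 4.79 CPM after foreign song. NFIL3, a repressor that takes part in the circadian clock, had 126, 257, 136 and 152 CPM after stimulus 2, 334, 374 and 361 CPM after stimulus 3 and 213, 344, 222 and 128 CPM after stimulus 6, with stimulus 3 above stimulus 2 and overlapping stimulus 6.

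Among the genes of small p, several were lowest after stimulus 6. HSPH1, an Hsp110 chaperone that recharges Hsp70, had 21.9, 26.6, 31.9 and 30.6 CPM after stimulus 2, 27.2, 23.3 and 23.6 CPM after stimulus 3 and 11.7, 15.7, 11.2 and 8.43 CPM after stimulus 6. All 4 stimulus 6 libraries were below the other 7, with a log2 fold change of 1.21 ± 0.27 for stimulus 2 against 6 (edgeR, adjusted p = 0.357) and 1.10 ± 0.27 without 8439. HSPA4, of the same family, had 149, 178, 163 and 159 CPM after stimulus 2, 208, 179 and 166 CPM after stimulus 3 and 91.2, 126, 84.4 and 49.0 CPM after stimulus 6, also without overlap. Its log2 fold change for stimulus 3 against 6 was 1.06 ± 0.28 (edgeR, adjusted p = 0.666), and 0.85 ± 0.24 without 8439. Baseline birds reached the levels of both sides, with a lowest of 4.28, a median of 15.3 and a highest of 27.7 CPM for HSPH1.

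HIGD1A, a mitochondrial protein induced by hypoxia, had 136, 121, 172 and 134 CPM after stimulus 2, 139, 146 and 219 CPM after stimulus 3 and 59.9, 98.9, 83.3 and 44.1 CPM after stimulus 6. SGK1, a kinase that glucocorticoids induce, had 414, 314, 663 and 432 CPM after stimulus 2, 329.9, 428 and 336 CPM after stimulus 3 and 162, 193, 303 and 150.4 CPM after stimulus 6. RGS1, which damps G protein signalling in lymphocytes, had 4.98, 3.62, 5.00 and 9.55 CPM after stimulus 2, 4.31, 3.63 and 5.36 CPM after stimulus 3 and 0.864, 1.73, 1.84 and 1.16 CPM after stimulus 6. In all 3 genes stimulus 6 lay below every other local library. Baseline birds had at most 2.71 CPM of RGS1 apart from 8448 with 6.06 CPM. They had at most 270 CPM of SGK1 apart from 8444 with 422 CPM. In RGS1 and SGK1, stimuli 2 and 3 therefore lay above most baseline birds, and stimulus 6 was lowest among the local recordings only. Against baseline the stimulus 6 log2 fold change of HIGD1A was -1.15 ± 0.23 (edgeR, adjusted p = 0.0837). SHE, an SH2 adaptor, went the other way with 3.69, 2.86, 3.30 and 2.95 CPM after stimulus 2, 3.64, 2.44 and 4.53 CPM after stimulus 3 and 10.3, 5.88, 8.96 and 11.2 CPM after stimulus 6. VANGL2, a planar polarity protein, had 0.605, 0.636, 0.683 and 0.657 CPM after stimulus 2, 0.644, 0.357 and 0.344 CPM after stimulus 3 and 3.20, 1.08, 1.57 and 4.33 CPM after stimulus 6. Both were highest after stimulus 6 without overlap, and for SHE the log2 fold change of stimulus 2 against 6 was -1.56 ± 0.35 (edgeR, adjusted p = 0.357) and -1.40 ± 0.35 without 8439. In the foreign song libraries of 8428 and 8439, SHE stood at 4.68 and 1.72 CPM and HIGD1A at 88.8 and 196 CPM. In both genes 8428 kept the side it had after local song relative to the other 6 paired birds, and 8439 lay on the opposite side.

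Other genes of small p set stimulus 6 apart in part. ATAD2, a chromatin ATPase, had 71.4, 85.4, 96.3 and 78.5 CPM after stimulus 2, 76.1, 141 and 82.7 CPM after stimulus 3 and 32.1, 44.8, 35.3 and 51.1 CPM after stimulus 6, the lowest without overlap. DGAT1, which makes triglycerides, had 0.502, 0.998, 0.480 and 0.176 CPM after stimulus 2, 0.483, 0.115 and 0.523 CPM after stimulus 3 and 2.86, 3.68, 1.49 and 2.85 CPM after stimulus 6, the highest without overlap. SPARC, a matrix protein, had 0.167, 0.711, 0.132 and 0.481 CPM after stimulus 2, 1.76, 1.10 and 0.370 CPM after stimulus 3 and 4.13, 2.30, 2.07 and 17.5 CPM after stimulus 6. Its lead after stimulus 6 was largest in 8439, and the log2 fold change of stimulus 2 against 6 was -4.24 ± 0.86 with that library (edgeR, adjusted p = 0.307) and -2.95 ± 0.67 without it. PODXL, a sialomucin, mostly set stimulus 2 rather than stimulus 6 apart among the local recordings, and its level in baseline birds is not given here. It had 10.4, 8.31, 8.08 and 9.32 CPM after stimulus 2, 22.2, 27.3 and 26.2 CPM after stimulus 3 and 22, 26.8, 57.8 and 9.52 CPM after stimulus 6, and 8439 alone of the stimulus 6 birds reached the range of stimulus 2. BCL6, a repressor that acts in lymphocytes, had 68.7, 56.6, 62.2 and 49.3 CPM after stimulus 2, 86.8, 42.7 and 104 CPM after stimulus 3 and 101, 136, 107 and 113 CPM after stimulus 6. Only 1 stimulus 3 bird reached the range of stimulus 6.

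**Figure D2:**
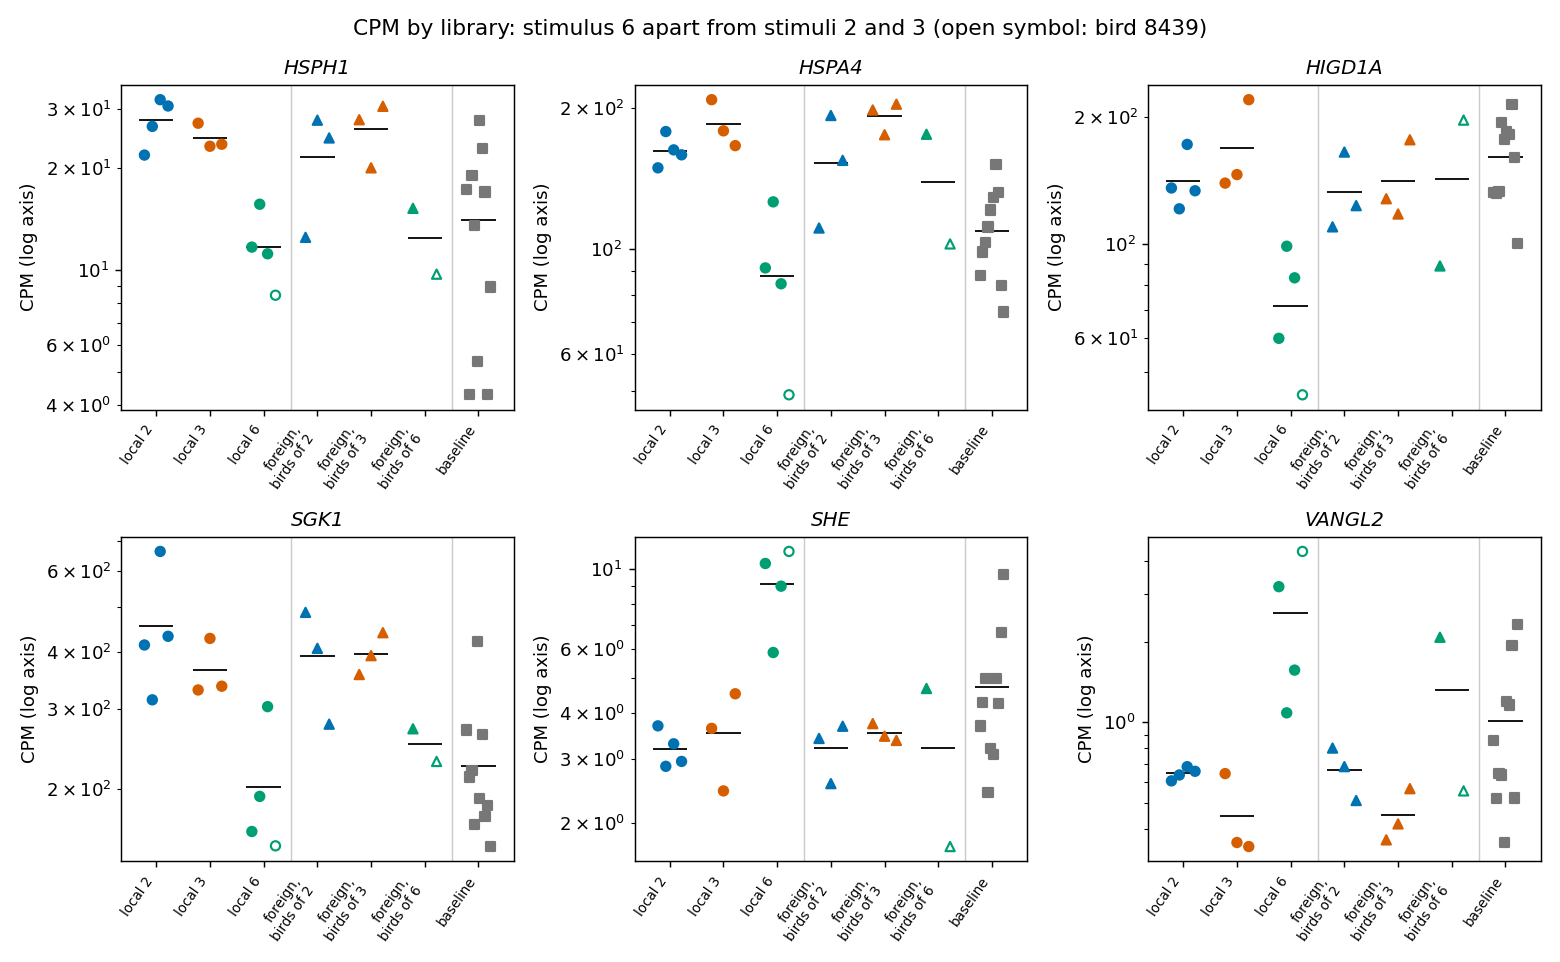
CPM (log axis) of 6 genes in each library, arranged as in the plot of genes with small p; horizontal lines are arithmetic means and open symbols are bird 8439. HSPH1, HSPA4, HIGD1A and SGK1 were lowest and SHE and VANGL2 highest in the 4 stimulus 6 libraries, and baseline birds lay mostly above stimulus 6 in HIGD1A and mostly at its level in SGK1.

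Of the 34 heat shock and chaperone genes listed, 25 were tested. After stimulus 2, 17 were higher and 8 lower than after stimulus 6 (median log2 fold change 0.30, against -0.08 over all genes, of which 44.4% were higher). After stimulus 3, 20 were higher and 5 lower than after stimulus 6 (median 0.52, against -0.10 over all genes, of which 43.9% were higher). None was called by edgeR. Without 8439 the medians were 0.15 and 0.26, and in first trials only -0.05 and 0.15, so the sign of the comparison with stimulus 2 turned there. HSPB1, a small heat shock protein of the list named after its values were seen, went the other way at low levels, with 0.193, 0.250, 0.120 and 0.160 CPM after stimulus 2, 0.309, 0.102 and 0.395 CPM after stimulus 3 and 0.584, 0.570, 0.689 and 0.618 CPM after stimulus 6, the highest without overlap. Among individual chaperones chosen after their values were seen, CHORDC1, an Hsp90 partner, had 49.5, 66.2, 67.9 and 65.8 CPM after stimulus 2, 57.2, 57.7 and 59.2 CPM after stimulus 3 and 25.5, 43.1, 32.8 and 24.6 CPM after stimulus 6. CCT3, a subunit of the ring chaperonin that folds actin and tubulin, had 47.2, 50.4, 47.2 and 47.0 CPM after stimulus 2, 41.1, 47.9 and 41.8 CPM after stimulus 3 and 27.9, 38.8, 28.9 and 16.2 CPM after stimulus 6. Both were lowest after stimulus 6 without overlap. CIRBP, a cold-inducible RNA-binding protein also chosen after its values were seen, had 33.9, 39.2, 51.1 and 38.9 CPM after stimulus 2, 44.2, 47.0 and 45.0 CPM after stimulus 3 and 59.4, 60.0, 60.3 and 54.8 CPM after stimulus 6, the highest without overlap (edgeR, adjusted p = 0.635 for stimulus 2 against 6).

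Of the 39 interferon response genes listed, 22 were tested and none was called. After stimulus 2, 1 member was higher and 21 lower than after stimulus 3 (median log2 fold change -0.39, against 0.02 over all genes, of which 52.6% were higher). After stimulus 3, 21 were higher and 1 lower than after stimulus 6 (median 0.87), and without 8439 the count was the same with a median of 1.05. Single birds stood at both ends: the mean log2 CPM of the list was 6.69 in bird 8427 after stimulus 3 and 3.97 in bird 8437 after stimulus 6, while the other 9 libraries lay between 5.07 and 6.01. The part of these birds in the counts was not tested. RSAD2, an antiviral enzyme, had 277, 285, 109 and 125 CPM after stimulus 2, 262, 563 and 205 CPM after stimulus 3 and 103, 78.5, 21.4 and 110.1 CPM after stimulus 6. Its groups of stimuli 3 and 6 did not overlap (log2 fold change 2.08 ± 0.53, edgeR adjusted p = 0.666).

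The erythroid and thrombocyte lists moved with bird 8439. Of 23 erythroid markers, 18 were higher and 5 lower after stimulus 2 than after stimulus 6 (median log2 fold change 0.32), and 16 and 7 without 8439 (median 0.14). Their summed level was 19687 to 23657 CPM after stimulus 2, 20241 to 28984 CPM after stimulus 3 and 10821 to 22312 CPM after stimulus 6, with the lowest value in 8439. Of 21 thrombocyte markers tested, 5 were higher and 16 lower after stimulus 3 than after stimulus 6 (median log2 fold change -0.73), but without 8439 the counts were 9 and 12 (median -0.18). MEIS1, a transcription factor of the thrombocyte list, stood at 10.6, 5.00, 4.98 and 63.2 CPM in the stimulus 6 birds, the last of them 8439. Ribosomal protein genes were the list most split within stimulus 6: their summed level was 6783 CPM in 8439 and 46763 CPM in 8437, beyond all other local libraries at both ends. With 8439, 22 of 71 were higher and 49 lower after stimulus 2 than after stimulus 6, and without it 8 and 63. The part of these cell type and ribosomal levels in the gene differences above was not tested.

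No member of any of the 20 lists was called by edgeR. For B cell markers, 13 of 18 were higher after stimulus 2 than after stimulus 3 (median log2 fold change 0.39), and 4 were higher and 14 lower after stimulus 3 than after stimulus 6 (median -0.73, and -0.66 without 8439). For monocyte markers, 1 was higher and 14 lower after stimulus 2 than after stimulus 6 (median -0.31), against 5 and 10 without 8439 (median -0.11). Over all genes the median of that comparison was -0.08, and 0.02 without 8439. With all local libraries, that comparison had medians of -0.43 for B cell markers (3 higher, 15 lower) and -0.34 for thrombocyte markers (4 and 17). It had 0.18 for interferon response genes (16 and 6) and -0.10 for ribosomal protein genes. For these lists the medians without 8439 are not given here. T cell markers had a median of -0.29 (-0.15 without 8439), heterophil markers -0.23 (0.03 without 8439, so the sign turned) and proliferation genes -0.28 (-0.04 without 8439). Lists on hormonal and neural answers to an intruder had -0.06 for immediate early genes, 0.00 for the glucocorticoid response and -0.09 for steroid and monoamine genes. Without 8439 these were 0.05, -0.05 and 0.40, and in first trials only 0.19, -0.10 and 0.45, the last from 9 and 12 genes. Inflammatory genes had a median of -0.21 (-0.12 without 8439), circadian clock genes -0.16 (-0.17) and antigen presentation genes 0.08 (0.06). Glycolysis and hypoxia genes had -0.10 (0.06 without 8439, so the sign turned) and oxidative stress genes -0.01 (-0.21). Nuclear oxidative phosphorylation genes had 0.07 (-0.14 without 8439, with 16 higher and 28 lower, so the sign turned) and proteasome genes 0.09 (0.01, and -0.20 in first trials only).

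**Figure D3:**
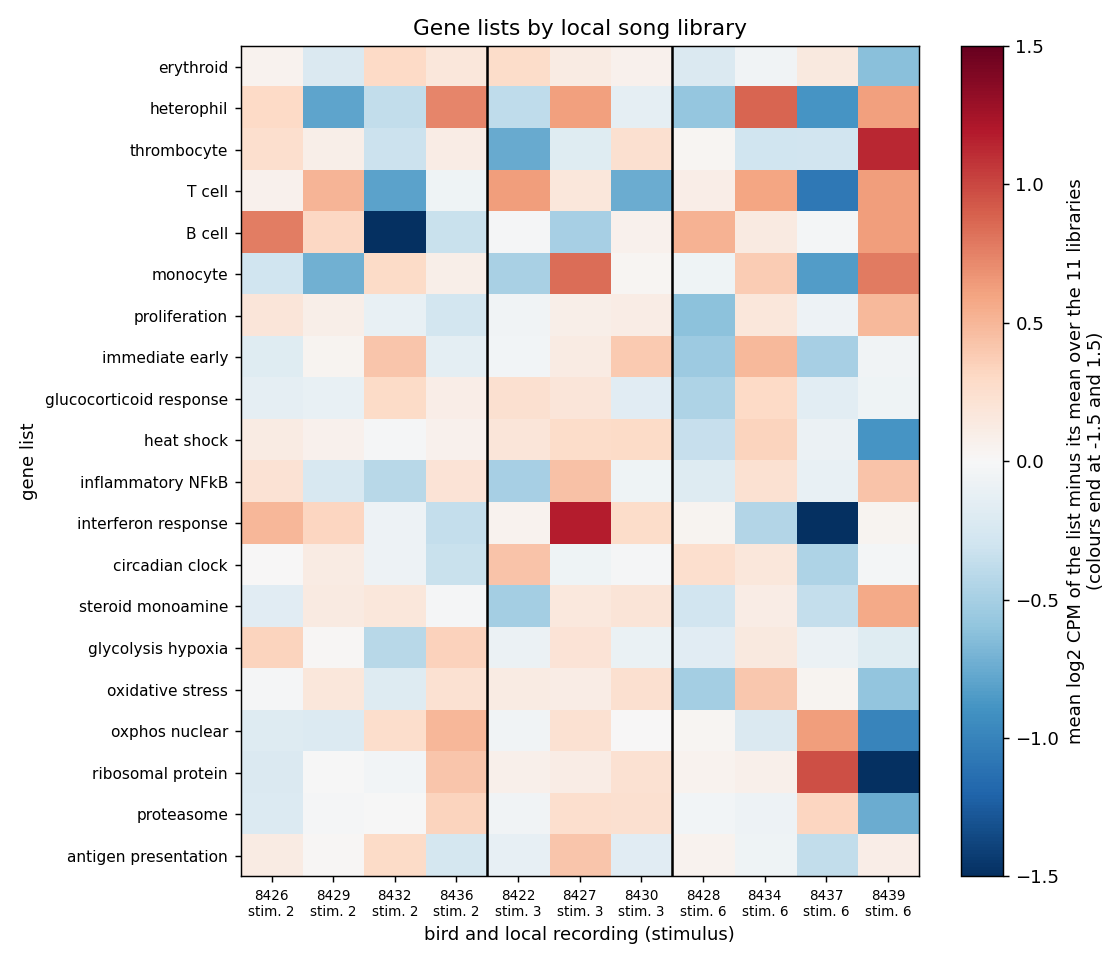
Mean log2 CPM of each gene list minus its mean over the 11 local song libraries (colour), with 1 column per bird grouped by recording. Bird 8439 is lowest in ribosomal protein, erythroid and heat shock genes and highest in thrombocyte markers, and bird 8437 is lowest and bird 8427 highest in interferon response genes.

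Genes whose libraries of 1 recording all lay above, or all below, every library of the other 2 were counted. Unrelated groups of libraries also separate in some genes. How many would do so under random assignment of libraries to recordings was not tested. The counts, and the lack of overlap described above for single genes, therefore show no difference between recordings by themselves. For stimulus 2 there were 35 above (0.272% of genes tested) and 24 below (0.187%), for stimulus 3 there were 45 above (0.35%) and 55 below (0.428%), and for stimulus 6 there were 95 above (0.739%) and 124 below (0.965%). Without 8439 stimulus 6 had 181 above (1.41%) and 246 below (1.91%). Stimulus 2 then had 69 (0.537%) and 70 (0.545%), and stimulus 3 had 53 (0.412%) and 74 (0.576%). In first trials only, with 2, 3 and 2 libraries, the order of stimuli 2 and 6 turned. Stimulus 2 had 734 above (5.71%) and 783 below (6.09%) there. Stimulus 3 had 199 (1.55%) and 248 (1.93%), and stimulus 6 had 562 (4.37%) and 677 (5.27%). Groups of fewer libraries separate more easily, so only counts from groups of equal size can be compared. The same birds' foreign song libraries, which this selection did not use, were then read for direction. Of the 35 genes highest after stimulus 2, 33 were also higher on average in those birds after foreign song (94.3%, against 55% of all genes), and of the 24 lowest, 14 were also lower (58.3%, against 44.9%). For the 45 genes highest after stimulus 3 the number was 40 (88.9%, against 54.1%) and for the 55 lowest it was 40 (72.7%, against 45.9%). For the 124 lowest after stimulus 6 it was 99 (79.8%, against 56.8%). For the 95 genes highest after stimulus 6 it was 46 (48.4%, against 43.2%), and 74 without 8439 (77.9%, against 46.8%). Stimulus 6 has only 2 paired birds, so without 8439 the direction was read in 1 foreign library, that of 8428. The local library of 8428 also took part in selecting these genes, so the 77.9% shows no agreement between birds. Since each set of birds heard its own foreign recording, bird and recording pair cannot be told apart here. Over the 8 foreign song libraries, grouped by the local recording their birds heard, edgeR called 0 of 12528 genes (0%), with 666 at an unadjusted p under 0.05 (5.32%) and 0 called by limma-voom.

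**Figure D4:**
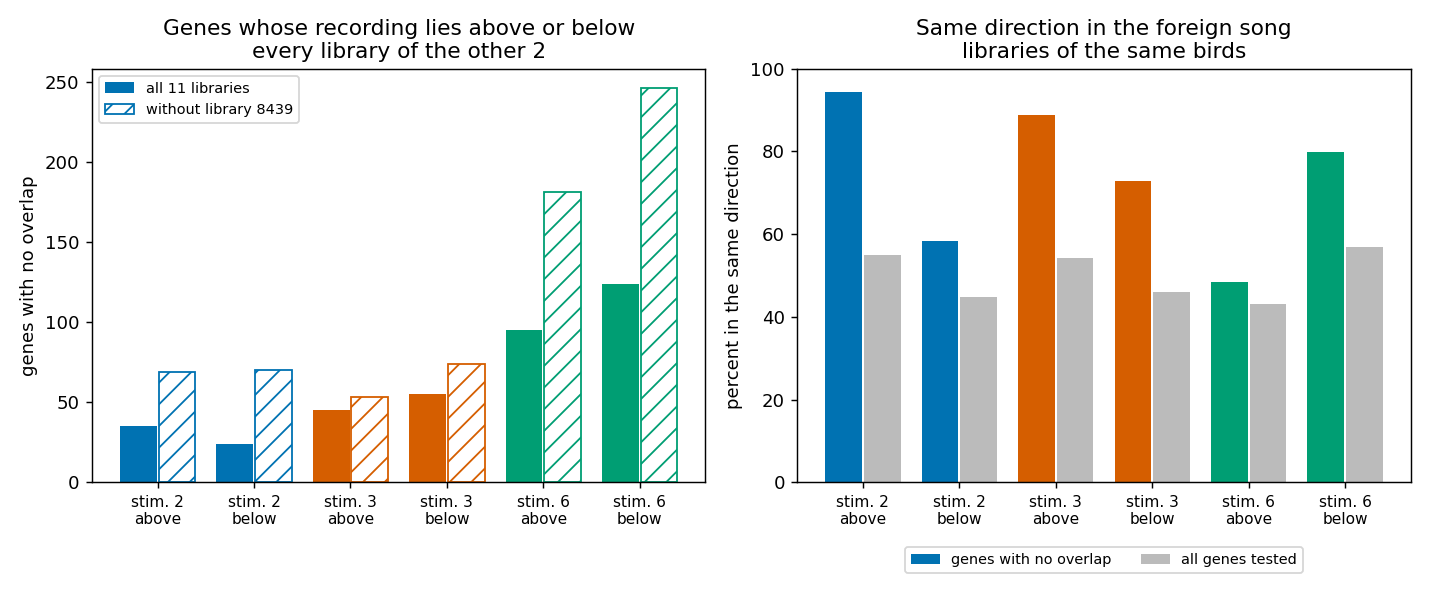
Left, number of genes whose libraries of 1 recording lie above or below every library of the other 2, with all 11 libraries (filled) and without 8439 (hatched). Right, percent of the same genes, and of all genes tested (grey), with the same direction in the foreign song libraries of the same birds; stimulus 6 has the most genes on the left, which did not hold in first trials only, and its genes in the above direction are near the grey bar on the right.

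Each recording was also set against the 10 baseline birds, in 1 fit of 13526 genes; these comparisons share the baseline libraries. Stimulus 2 had 9 genes called (0.0665%), stimulus 3 had 3 (0.0222%) and stimulus 6 had 4 (0.0296%), all higher than baseline (edgeR). PPP1R14C, an inhibitor of protein phosphatase 1, had 5.60, 3.09, 17.2 and 5.37 CPM after stimulus 2 against a lowest of 0.133, a median of 0.774 and a highest of 1.25 CPM in baseline birds (log2 fold change 3.30 ± 0.49, edgeR adjusted p = 0.00689). All 4 birds were above all 10 baseline birds. RELL2, of the RELT family of receptors, had 278, 113, 622 and 287 CPM after stimulus 2 against a lowest of 35.2, a median of 74.5 and a highest of 115 CPM in baseline birds (log2 fold change 2.17 ± 0.34, edgeR adjusted p = 0.00757), with bird 8429 within the baseline range. After stimuli 3 and 6 RELL2 had 373, 172 and 158 CPM and 146, 141, 155 and 69.2 CPM and was not called. The transcriptional coregulator MN1 had 10.2, 7.4, 9.60 and 8.91 CPM after stimulus 2 against a lowest of 1.57, a median of 2.64 and a highest of 5.93 CPM in baseline birds (log2 fold change 1.67 ± 0.30, edgeR adjusted p = 0.0182). Again all 4 birds were above baseline. Neither PPP1R14C nor MN1 was among the genes with all stimulus 2 libraries above every library of stimuli 3 and 6. Their calls against baseline therefore do not separate stimulus 2 from the other recordings. PPP1R14C was also among the genes of smallest p, none of them called, in the same birds' foreign song libraries grouped by local recording. PDK1, described above, was also called (log2 fold change 2.66 ± 0.47, edgeR adjusted p = 0.0182) against a lowest of 0.172, a median of 0.688 and a highest of 1.29 CPM in baseline birds, whose range took in birds 8429 and 8432. Of these calls RELL2 was lost without bird 8432 (adjusted p = 0.0921), PDK1 without 8426 (0.144) or 8436 (0.102) and MN1 without 8426 (0.0521) or 8432 (0.0646), while PPP1R14C passed with any 1 local library left out (edgeR).

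Several called genes were high in 1 or 2 birds. Of the 9 calls of stimulus 2, 3 rested on bird 8429. IGDCC4 had a log2 fold change of 6.77 with that bird and 0.99 without it (edgeR, adjusted p = 0.961), LOC134423304 had 4.91 with it and 0.29 without it, and LOC134423305 had 4.97 with it and 0.25 without it. PDE11A, a phosphodiesterase, had 0.0671, 54.2 and 0.0255 CPM after stimulus 3 against a lowest of 0, a median of 0.0247 and a highest of 0.0783 CPM in baseline birds (edgeR, adjusted p = 0.0248, and 0.987 without bird 8427). SHROOM3, an actin-binding protein, had 245, 0, 0 and 0.476 CPM after stimulus 6, and in the baseline birds it had a lowest of 0, a median of 0 and a highest of 0.0133 CPM (edgeR, adjusted p = 0.0244). Without bird 8428, and also without bird 8439, SHROOM3 did not pass the filter on low counts and was not tested. ADI1, an enzyme of methionine salvage, had 133, 3.69, 39.4 and 2.89 CPM after stimulus 6, high in 8428 and 8437 only (edgeR, adjusted p = 0.0244, 0.365 without 8428, and 0.050 and 0.0511 without 8422 and 8430 of stimulus 3). PTPRD, a receptor phosphatase, was high in 3 of the 4 birds, with 2.85, 0.778, 2.78 and 4.12 CPM against a lowest of 0.240, a median of 0.450 and a highest of 0.920 CPM in baseline birds (log2 fold change 2.44 ± 0.43, edgeR adjusted p = 0.0244), and bird 8434 lay within the baseline range. Its adjusted p was 0.0891 without 8428, 0.171 without 8439 and 0.0511 without 8430 of stimulus 3 (edgeR).

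Genes of this kind were collected by a cut of at least 10 CPM in 1 local library and under 1 CPM in each of the other 10. There were 12, in 7 birds. In the 7 birds with both songs other than 8439, 5 of 5 such genes also had at least 10 CPM in the bird's own foreign library. SHROOM3 had 245 CPM after local and 285 CPM after foreign song in bird 8428. PDE11A had 54.2 and 38.5 CPM, and OPN3, an opsin, 16.4 and 13.2 CPM, after local and foreign song in bird 8427. IGDCC4 had 17.3 and 13.2 CPM in bird 8429, and ESX1, a homeobox gene, 16.7 and 15.5 CPM in bird 8436. In 8439, by contrast, 3 of 3 such genes were under 1 CPM after foreign song, among them CENPC, a centromere protein, with 18.3 CPM after local and 0.278 CPM after foreign song. OPN3, IGDCC4, ESX1 and CENPC were named after their values were seen.

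**Figure D5:**
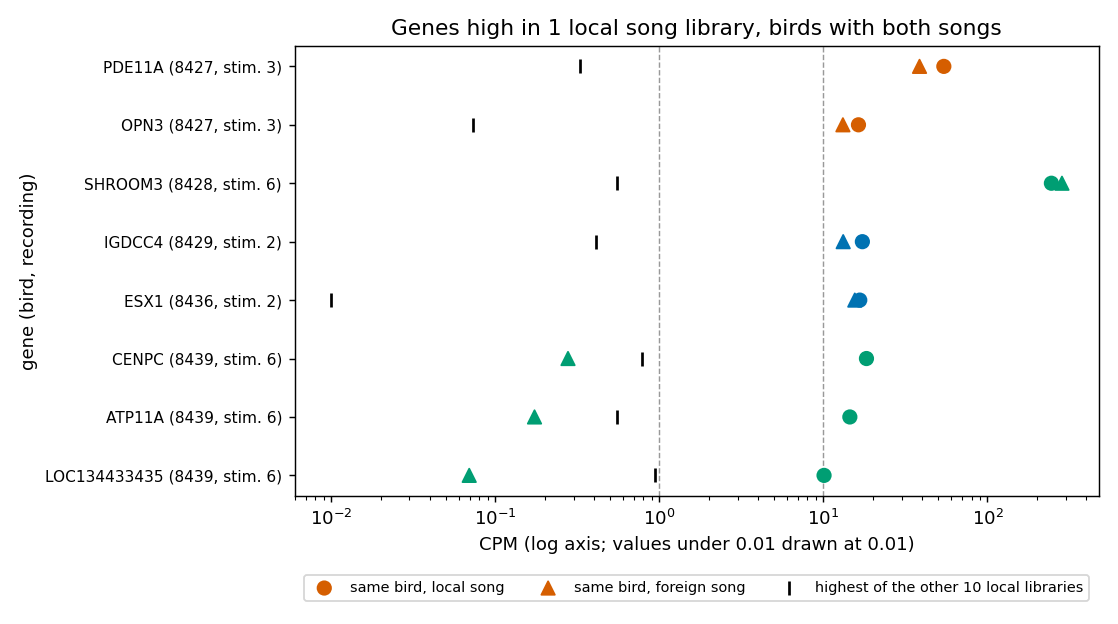
CPM (log axis) of the genes high in 1 local song library, for birds with both songs: circles are the bird's local library, triangles its foreign library, ticks the highest of the other 10 local libraries, and dashed lines the cuts at 1 and 10 CPM. Circle and triangle lie together in 8427, 8428, 8429 and 8436 and far apart in 8439.

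Within the 8 birds that heard both songs, the local minus foreign change was compared between the recording pairs with the bird as a block. Of 13862 genes, 1 was called (0.00721%): SPON1, a secreted matrix protein (edgeR, adjusted p = 0.0241). It had 0.180, 0.362, 4.58 and 0.0801 CPM after stimulus 2, 0.295, 0.637 and 0.0638 CPM after stimulus 3 and 0.438, 0.0219, 0 and 58.8 CPM after stimulus 6, and the high value was that of 8439. After foreign song 8428 and 8439 both had 0 counts of it, so no fold is given. The count was 136 without bird 8439, 4111 without 8428, 1 without 8422, 0 without any of the other 5 birds and 0 with the trial as a term. Within stimulus 6 alone, the local minus foreign change called 1654 genes (11.9%), 554 without 8439, 5475 without 8428, 216 to 496 without any of the other 6 birds and 0 with the trial as a term, while stimuli 2 and 3 had 0 (0%) each, with 121 (0.873%) and 190 (1.37%) genes at an unadjusted p under 0.05 (edgeR). Stimulus 6 has only 2 paired birds, so each of those leave-outs of 8428 or 8439 tests 1 bird, which is assumed to vary like the birds of the other recordings. The local library labelled 8439 had an r of -0.311 with that bird's foreign library, the lowest of the 8. Whether its label is right was not tested, so these counts may not measure an answer to song. Both stimulus 6 birds heard local song in the second trial, and all stimulus 3 birds heard it in the first. Song and trial order therefore cannot be told apart within stimulus 6 or within stimulus 3. A difference between these recording pairs cannot be told apart from trial order either.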

How the data were processed

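RNA from whole blood of 25 birds was sequenced as poly(A) paired-end libraries. The authors deposited raw counts per gene for 33 libraries, 21141 gene rows, 0 of them without a gene name. The tools fastp and STAR were used, per the submitters' processing notes. Versions, build, counter and strand setting were not given in the sources used here. Overlapping genes and close paralogs may therefore share counts. RefSeq's gene table held 20961 of the symbols.

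Counts were tested with edgeR 4.0.16 (R 4.3.3): filterByExpr with a minimum count of 10, TMM scaling, the robust quasi-likelihood test and Benjamini-Hochberg adjustment at 0.05. DESeq2 1.42.0 and limma-voom (limma 3.58.1) were alternatives, as were other size factors, no filter, trial as a term, first trials only, baseline libraries in the fit and leaving out each library. CPM used TMM over the 33 libraries, and fold changes come from each fit. Fold change errors are SEs and intervals are 95%. The scripts were tested on simulated data. P-values measure the spread between birds, except in the fit with the bird as a block. There they measure the spread of the local minus foreign change.

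Named genes were the 10 of smallest p over all recordings, the smallest 4 per direction in each pair, the smallest 2 per gene list, and those called against baseline or within birds. Genes outside that rule are stated as such, and some genes that the rule names are not reported here. The members, the gene lists and the rule were chosen with earlier results of these data known. Each recording against the mean of the other 2, DESeq2 without 8439, and counts without overlap after leaving out 8439 were added after seeing the data.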

Additional observations from a re-analysis of the deposited data

Results flagged for a closer look

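In groups of 4 to 10 libraries, a highest or lowest library standing further from the nearest other than Dixon's 95% value allows was looked for in 147 groups and found in 23. The rate of about 1 in 20 by chance holds for normally distributed values, whereas unlogged CPM were used for genes. Some of these genes were also named because of 1 high bird. No excess over chance can therefore be read from the count. In stimulus 6, bird 8439 stood alone at 17.5 CPM in SPARC, 63.2 CPM in MEIS1, 58.8 CPM in SPON1 and, at the low end, 69.2 CPM in RELL2. Bird 8428 stood alone at 245 CPM in SHROOM3 and bird 8434 at 14.7 CPM in IL7R. In stimulus 2, bird 8432 had 4.58 CPM of SPON1, bird 8426 had 0.129 CPM of PDE11A, bird 8429 had 0.0499 CPM of SHROOM3, and bird 8429 scored 7.42 on principal component 3. PDE11A and SHROOM3 were at 0 in the other 3 stimulus 2 libraries.

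Among the baseline birds, bird 8450 was highest and alone in 8 genes, with 493 CPM of NFIL3, 15.5 CPM of MYLK2, 93.6 CPM of RCSD1, 32 CPM of DDHD1, 8.42 CPM of DGAT1, 15.3 CPM of MEIS1, 8.33 CPM of FCER1G and 5.93 CPM of MN1. Bird 8438 had 10.2 CPM of BCLAF3 and 4.97 CPM of SPON1, bird 8435 had 29.6 CPM of XKR5, bird 8448 had 6.06 CPM of RGS1 and bird 8444 had 422 CPM of SGK1.

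The within-bird local minus foreign change of SPON1 differed between the recording pairs (edgeR quasi-likelihood test, Benjamini-Hochberg adjusted p = 0.0241), and its high value was in the local library of 8439.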

How the results depend on the processing

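For any difference among the recordings (0 genes called), DESeq2 called 57 and, without 8439, 71, no filter 3, first trials only 3, the fit with baseline libraries 1, stimulus 2 against the mean of the others 1, and leaving out a library 0 to 1. For stimulus 2 against 3, DESeq2 called 3 and, without 8439, 15, first trials 2, and leaving out a library 0 to 1. For 2 against 6, DESeq2 called 60 and 83 without 8439, first trials 3, and leaving out a library 0 to 0. For 3 against 6, DESeq2 called 28 and 25 without 8439, no filter 1, first trials 2, and leaving out a library 0 to 1. Against baseline, stimulus 2 (9) had 27 by DESeq2, 2 by limma-voom, 14 in first trials and 7 to 12 leaving out a library. Stimulus 3 (3) had 1 by DESeq2, 0 by limma-voom, in first trials and with the 2 groups only, and 1 to 3 leaving out a library. Stimulus 6 (4) had 108 by DESeq2, 0 by limma-voom, with no filter and with the 2 groups only, and 1 to 10 leaving out a library. The within-bird difference (1) had 301 with no filter, 0 by limma-voom, with trial as a term and with no replicate block, and 0 to 4111 leaving out a bird. The stimulus 6 change (1654) had 2799 by limma-voom, 0 with trial as a term and with no replicate block, and 216 to 5475 leaving out a bird. The foreign song libraries (0) had 0 to 2. Causes were not tested. The local recordings could not be compared directly within birds, because each was heard by different birds. Only the local minus foreign change was taken within birds, and it was then compared between different birds. Of 958 values of 50 gene results under alternatives, 874 kept direction and side, 36 were weaker, 46 stronger and 2 reversed, both in first trials: MEIS1 for 3 against 6 (0.018) and FCER1G for 2 against 6 (0.26).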
